A study of Mus musculus with 9 samples.

Results

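The contractile actin genes and the factor that regulates them were followed through reprogramming as 9 loci, Acta2, Actg2, Tagln, Cnn1, Myl9, Tpm1, Tpm2, Vcl and Srf, of 22225 protein-coding genes in the annotation. The members were given by symbol, and all 9 were found once in the GENCODE annotation of mm9. For each gene, accessible regions were collected from 10 kb upstream of the TSS to 10 kb past the transcript end, and a promoter value was taken from the 3 kb upstream of any annotated TSS. ATAC-Seq marks open chromatin by where the Tn5 transposase inserts, and the value of a region was its highest pileup, which is the number of extended tags stacked on the summit.

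The cells were mouse embryonic fibroblasts (MEFs) from embryos that carry an IRES-EGFP cassette behind the stop codon of Pou5f1, the gene for Oct4. Reprogramming was induced with pMXs retroviruses for Oct4, Sox2, Klf4 and c-Myc. The time course held D0 and D3, both unsorted, Thy-1- cells at day 6 and day 9 (D6T- and D9T-), SSEA-1+ cells at day 12 and day 16 (D12S+ and D16S+), and fully reprogrammed iPSCs. A pair of day 6 libraries came from cells that received siRNA against H3f3a and H3f3b, the genes for histone H3.3, or a non-targeting siRNA (D6 siH3.3 and D6 siNT). The sample labels call both siRNA libraries Thy-1-, whereas the study's own list of libraries enters no sort for them. Each condition had 1 library, so no difference below has a replicate check, and the intervals given are exact 95% intervals that hold counting error of the tags only. In such bulk libraries, fewer cells with an open site and less opening per cell cannot be told apart.

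Serum response factor (SRF) binds the CArG box, a short element with an A/T-rich core, and acts through partner proteins. With the myocardin-related factors, which are held back by monomeric actin, it drives genes for the contractile apparatus. With the ternary complex factors of the Elk group it drives immediate early genes after growth signals. Acta2, Tagln and Cnn1 are the classic genes of smooth muscle and of activated, matrix-bound fibroblasts, and MEFs in culture are known for actin stress fibres that pluripotent cells lack.

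Depth ran from 13213117 tags in D9T- to 31714845 in D0. No region was called below 7 to 11 tags, depending on the library, so weaker openings were not detectable. Signal per tag differed between libraries over the whole genome. The median promoter among the 9771 genes with a promoter region in all 9 libraries stood at 0.946 pileup per 1000000 tags (CPM) at D0, 2.28 at D3 and 3.83 at D6T-, and then at 1.51, 2.44, 2.31 and 1.20 at D9T-, D12S+, D16S+ and in iPSCs. The same median was 1.45 in D6 siH3.3 and 1.38 in D6 siNT. Each member is therefore given both in CPM and as a relative level, which is that value over the library's median of these 9771 promoters. The lowest pileup called was 0.347 CPM at D0 and 0.374 at D6T-, beside medians of 0.946 and 3.83. The lowest relative level that could be called was thus higher at D0 than at D6T-. At D0, 5 of 8 pluripotent markers, Nanog and Zfp42 among them, lacked a promoter region, whereas all 8 had one at D12S+, D16S+ and in iPSCs. The summed CPM of these markers was 14.4 at D0, 26.1 at D3, 29.3 in D12S+, 38.0 in D16S+ and 21.7 in iPSCs. Pou5f1 made up most of it at D0 (13.1) and in iPSCs (14.4), and Lin28a had 0.725 and 0.715 there. Fibroblast markers did not separate the libraries by called promoter regions, since 7 of 8 had one at D0, D12S+ and D16S+ and 6 in iPSCs. Their summed CPM was 5.71 at D0, 8.46 in D12S+, 8.64 in D16S+ and 4.44 in iPSCs, within 4.31 to 14.0 over the 9 libraries. The marker sums in this paragraph were not divided by the library medians, which were 0.946 at D0, 2.44 at D12S+ and 2.31 at D16S+. A higher sum in SSEA-1+ cells than at D0 therefore need not be a higher relative level. Skeletal or cardiac muscle markers had a promoter region in 0 to 2 of 5 genes in every library, with none at Myod1 or Nkx2-5 (summed CPM 0 to 1.78). Smooth muscle markers other than the members had one in 3 of 5 genes at D0 and 5 of 5 in iPSCs, with a summed CPM between 1.95 and 7.62, and the part of other cell types in the values below was not tested.

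The sequences just before the first TSS show where the members carry the SRF element. They were read from mm9, 300 bases upstream of the first annotated TSS on the strand of the gene, with CArG boxes in capitals, for Actg2 (chr6:83486260-83486559, minus strand), Tagln (chr9:45744142-45744441, minus strand), Myl9 (chr2:156600856-156601155, plus strand), Vcl (chr14:21748355-21748654, plus strand) and Srf (chr17:46693112-46693411, minus strand). In Acta2 (chr19:34329827-34330126, minus strand) no perfect CArG box was found, and the capitals there mark matches with 1 deviating base.
Acta2: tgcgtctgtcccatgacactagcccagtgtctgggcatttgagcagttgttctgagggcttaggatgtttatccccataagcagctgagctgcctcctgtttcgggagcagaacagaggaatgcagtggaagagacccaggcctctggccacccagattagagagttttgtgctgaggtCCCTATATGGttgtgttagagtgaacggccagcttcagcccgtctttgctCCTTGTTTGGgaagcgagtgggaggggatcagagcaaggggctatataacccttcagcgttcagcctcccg
Actg2: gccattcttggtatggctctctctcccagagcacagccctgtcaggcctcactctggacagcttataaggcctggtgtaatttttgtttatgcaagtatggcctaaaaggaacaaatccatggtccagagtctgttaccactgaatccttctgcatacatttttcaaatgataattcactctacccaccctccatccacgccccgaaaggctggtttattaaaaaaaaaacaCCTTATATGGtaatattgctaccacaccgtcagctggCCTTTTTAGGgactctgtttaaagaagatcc
Tagln: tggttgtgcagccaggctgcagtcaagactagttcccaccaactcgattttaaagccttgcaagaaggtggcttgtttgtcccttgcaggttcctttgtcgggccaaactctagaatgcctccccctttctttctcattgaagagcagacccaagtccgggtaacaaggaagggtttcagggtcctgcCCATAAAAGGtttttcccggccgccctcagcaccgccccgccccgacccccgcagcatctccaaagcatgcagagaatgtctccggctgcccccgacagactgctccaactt
Myl9: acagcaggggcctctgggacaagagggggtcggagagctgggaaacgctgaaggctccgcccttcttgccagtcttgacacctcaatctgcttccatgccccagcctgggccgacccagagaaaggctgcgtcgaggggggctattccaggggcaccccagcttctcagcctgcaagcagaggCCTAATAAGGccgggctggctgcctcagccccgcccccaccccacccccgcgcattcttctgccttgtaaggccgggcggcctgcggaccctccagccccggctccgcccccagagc
Vcl: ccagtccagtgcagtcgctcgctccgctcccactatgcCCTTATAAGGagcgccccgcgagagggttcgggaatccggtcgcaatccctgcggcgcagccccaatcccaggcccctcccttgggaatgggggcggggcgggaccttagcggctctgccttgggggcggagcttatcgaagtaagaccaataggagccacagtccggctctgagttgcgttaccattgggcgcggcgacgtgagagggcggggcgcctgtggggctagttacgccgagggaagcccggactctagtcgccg
Srf: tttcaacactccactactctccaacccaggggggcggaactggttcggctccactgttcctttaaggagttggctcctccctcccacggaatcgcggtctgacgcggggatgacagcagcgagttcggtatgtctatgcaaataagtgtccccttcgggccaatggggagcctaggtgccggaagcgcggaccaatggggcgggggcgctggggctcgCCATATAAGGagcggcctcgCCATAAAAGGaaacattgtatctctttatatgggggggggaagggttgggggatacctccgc
The boxes began 68 and 31 bases before the TSS in Actg2, 112 before it in Tagln, 117 before it in Myl9, 262 before it in Vcl, and 82 and 62 before it in Srf. The deviating matches of Acta2 began 121 and 71 bases before its TSS. Among the members not printed, Tpm1 held 1 match with 1 deviation, 28 bases before its TSS. The same 300 bases of Cnn1 and Tpm2 held neither a perfect box nor such a match. From 250 bases before to 50 after the first TSS, 4 of the 9 members (Actg2, Tagln, Myl9 and Srf) held a perfect CArG box, against 1.48% of 22220 protein-coding promoters of the same length. A match with at most 1 deviation was found in these 4, in Acta2 and in Tpm1, against 20.3% of those promoters. Further boxes lay inside the transcribed part of Tagln, 11 bases after the first base (chr9:45744111-45744140), and of Cnn1, in its first intron (chr9:21904560-21904589), shown with 10 bases on each side.
Tagln, after the TSS: gtgtctttccCCAAATATGGagcctgtgtg
Cnn1, intron: agccgccgcgCCTTATAAGGcggccttggg
Perfect boxes also lay under a pair of intronic regions that were each called in 1 library, 3046 bp into Tpm1 (D6T-, 10 tags) and 736 bp into Vcl (iPSCs, 17 tags). These genes are the SRF targets by choice, so the boxes describe the members and were not tested.

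At the promoters, the members took different courses. Acta2, Tagln, Cnn1 and Tpm2 stood near or above the median promoter at D0 and below it at every later time-point at which they had a region. Vcl stood above it throughout, Srf stood below it at D0 and in D6 siNT and above it in the other 7 libraries, and Tpm1 moved from 0.633 of it at D0 to 1.24 at D16S+. A promoter region was found in all 9 libraries for Tpm1, Tpm2, Vcl and Srf, as for 44% of all protein-coding genes, and in none of them for Actg2, as for 25.2% of all genes. The number of members with a promoter region was 8 at D0, D3 and D6T-, 5 at D9T-, the library with the fewest tags, 7 at D12S+ and D16S+, and 6 in iPSCs. Of all protein-coding genes 58.1% had one at D0, 67.9% at D3, 68.3% in D6T-, 50.5% in D9T-, 63.1% in both D12S+ and D16S+ and 64.0% in iPSCs. The members began at 8 of 9, with little room to rise, and the lower number in iPSCs rests on Acta2 and Cnn1. Their change is therefore not set against that of all genes.

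**Figure D1:**
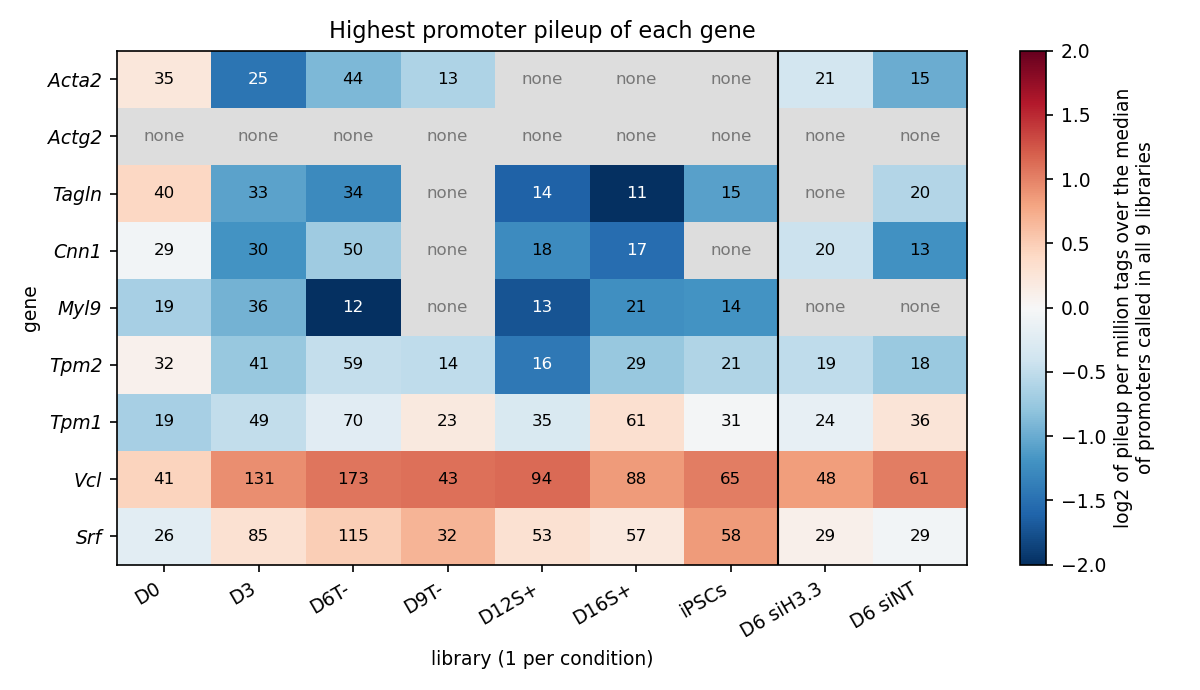
Highest promoter pileup of the 9 genes (rows) in the 9 libraries (columns, 1 per condition). Numbers are tags, colour is the log2 relative level, and grey boxes marked none had no region. Acta2 goes from 35 tags at D0 to none at D12S+, D16S+ and in iPSCs, whereas Vcl and Srf have a region in every library.

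The actins came first. Acta2 (chr19:34315580-34329826, minus strand) encodes smooth muscle alpha actin, the marker of stress fibres in myofibroblasts. Its promoter value was 1.10 CPM at D0 and 0.827 by D3, then 2.06 in D6T- and 0.984 in D9T- cells, and no region was called in D12S+, D16S+ or iPSCs. Relative levels were 1.17, 0.362, 0.537 and 0.650 at D0, D3, D6T- and D9T-, so the relative level was highest at D0 although the CPM was highest at D6T-. The region summit lay 84 bp after the TSS, in the first intron. Another summit 551 bp after the TSS had 12, 19 and 27 tags in the first 3 time-points and was not seen later in the time course. Of the 7 summit clusters in the whole locus, 0 were called at D12S+, D16S+ or in iPSCs. Among genes with a promoter region at D0, 4.62% had none at D12S+, D16S+ and in iPSCs, and Acta2 was the only one of the 8 members with a D0 promoter region to do so.

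Actg2 (chr6:83462899-83486259, minus strand) encodes the gamma actin of enteric smooth muscle. No region was found in its promoter or its gene body in any library, D0 included, even though its upstream sequence holds a pair of CArG boxes. Its locus value, 1.01 CPM at D0 and 1.73 in iPSCs, came from a region in all 9 libraries at the TSS of the neighbouring gene Dguok, and it is given here as a property of that neighbour.

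The genes for actin-bound proteins of the contractile apparatus followed. Tagln (chr9:45737711-45744141, minus strand) encodes transgelin, also called SM22 alpha, which bundles actin filaments. Its promoter value was 1.26 CPM at D0, followed by 1.09 at D3 and 1.59 in D6T-. It was 0.795 in D12S+, then 0.520 in D16S+ and 0.564 in iPSCs, and no region was called in D9T-. The relative level was 1.33 at D0 and between 0.224 and 0.478 in all later time-points with a region. Its place among all genes' promoters moved from the 87.8th percentile at D0 to the 41.4th in iPSCs. A pair of separate openings lay behind these values. The region at the TSS, with its summit 59 bp downstream, held 27, 33 and 18 tags in D0, D3 and D6T- cells and was not called in any of the other 6 libraries. The region 1100 bp upstream held 40, 24 and 34 tags at the same time-points and was still called later, with 14 tags in D12S+, 11 in D16S+ and 15 in iPSCs. The CArG box after the TSS lay under the first of these regions, 48 bp from its summit. A region 5479 bp upstream, with 24 tags in iPSCs and none at D0, lies at a TSS of the neighbour Sidt2.

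Cnn1 (chr9:21903725-21914074, plus strand) encodes calponin, an actin-binding protein that inhibits the myosin ATPase in smooth muscle. Its promoter value was 0.914 CPM at D0, nearly the same at D3 (0.992), then 2.34 in D6T-, 1.02 in D12S+ and 0.803 in D16S+, and no promoter region was called in D9T- or iPSCs. The relative level was 0.967 at D0 and 0.347 at D16S+. This value came from a region with its summit 3115 bp upstream that reaches into the 3 kb window, and it held 29 tags at D0, 50 at D6T- and 17 at D16S+. The region on the TSS itself was weaker, with 19, 23, 13 and 12 tags in D0, D3, D6T- and D12S+ cells, and was not called in D16S+ or iPSCs. A further opening, 9126 bp upstream, had 29, 24 and 28 tags at D0, D3 and D6T- and was absent from the later time course. The intron that holds the CArG box was open with 12 tags at D3 and 12 in iPSCs only. In all 9 libraries a region lay at the TSS of the neighbour Elof1, 17866 bp downstream, and it set the Cnn1 locus value at D3, from D9T- on and in D6 siNT.

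Myl9 (chr2:156601156-156607394, plus strand) encodes the regulatory light chain of smooth muscle and non-muscle myosin. Its promoter value was 0.599 CPM at D0, with 1.19 at D3 and 0.561 in D6T-. Later values were 0.738 for D12S+, 0.992 for D16S+ and 0.527 for iPSCs, and none was called at D9T- or in either siRNA library. These are 12 to 36 tags, where the lowest pileup called was 8 to 11 tags in the same libraries. Among the libraries with a region, the relative level was below 0.640 in each and lowest at D6T- (0.146). A level as low as that at D6T- could not have been called at D0. The summit lay 111 bp upstream of the TSS, with the CArG box of the printed sequence 6 bp from it. A region 8642 bp upstream had 16, 19 and 17 tags at D0, D3 and D6T- and none later, whereas a region near the 3′ end of the gene, 5582 bp after the TSS, was called only at D16S+ (14 tags) and in iPSCs (15 tags).

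The tropomyosins lie along actin filaments and gate the access of myosin. Tpm2 (chr4:43527583-43536637, minus strand), which encodes beta tropomyosin, had a promoter region in every library, with 1.01 CPM at D0, 1.36 by D3, 2.76 and 1.06 in the Thy-1- cells of D6T- and D9T-, 0.908 and 1.37 in the SSEA-1+ cells of D12S+ and D16S+, and 0.790 in iPSCs. Its relative level was 1.07 at D0 and between 0.372 and 0.720 in the other 8 libraries. The site of the opening differed between libraries. An intronic region 1317 bp after the first TSS held 32, 41 and 59 tags at D0, D3 and D6T- but 0 at D16S+ and 13 in iPSCs. Another intronic region, 3544 bp after the first TSS, set the promoter value at D12S+ (16 tags) and in iPSCs (21 tags) and held 19 tags at D0. Both count as promoter because they lie within 3 kb upstream of an inner TSS, 4096 bp after the first. The region 212 bp after the TSS held 16, 25 and 27 tags at D0, D3 and D6T- and 29 tags at D16S+. A region 590 bp upstream, with a CArG box 33 bp from its summit, was called at D0, D3 and D6T- (18, 28 and 13 tags) and in no other library.

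Tpm1 (chr9:66870397-66897213, minus strand), which encodes alpha tropomyosin, has 21 annotated start sites. Most fall into a group at the 5′ end and a group that begins 5444 bp further in, from which the short tropomyosins start. Promoter values were 0.599 CPM at D0 and 1.62 at D3, then 3.27 in D6T- and 1.74 in D9T-, and later 1.99 in D12S+, 2.88 in D16S+ and 1.17 in iPSCs. Both groups of start sites had a region in all 9 libraries, but their balance differed. At D0 the first site had 19 tags and the inner site 16, so the inner site took 45.7% of both (exact 95% interval 28.8 to 63.4). The inner share was 46.7% (36.3 to 57.4) at D3, 60.3% (50.8 to 69.3) at D6T-, 69.7% (51.3 to 84.4) at D9T- and 60.3% (46.6 to 73.0) at D12S+. It was 76.3% (65.4 to 85.1) at D16S+ and 68.9% (53.4 to 81.8) in iPSCs. The interval of D16S+, which had the highest inner share of the time course, did not overlap that of D0. Those of D3, D6T-, D9T-, D12S+ and iPSCs did. The siRNA libraries of day 6 had inner shares of 76.6% (62.0 to 87.7) in D6 siNT and 64.9% (47.5 to 79.8) in D6 siH3.3, so the share of D6 siNT was as high as that of D16S+ and did not follow the day, and both intervals overlapped that of D0. In relative levels the first site was at 0.633 at D0 and 0.388 at D16S+, and the inner site at 0.533 and 1.24.

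**Figure D2:**
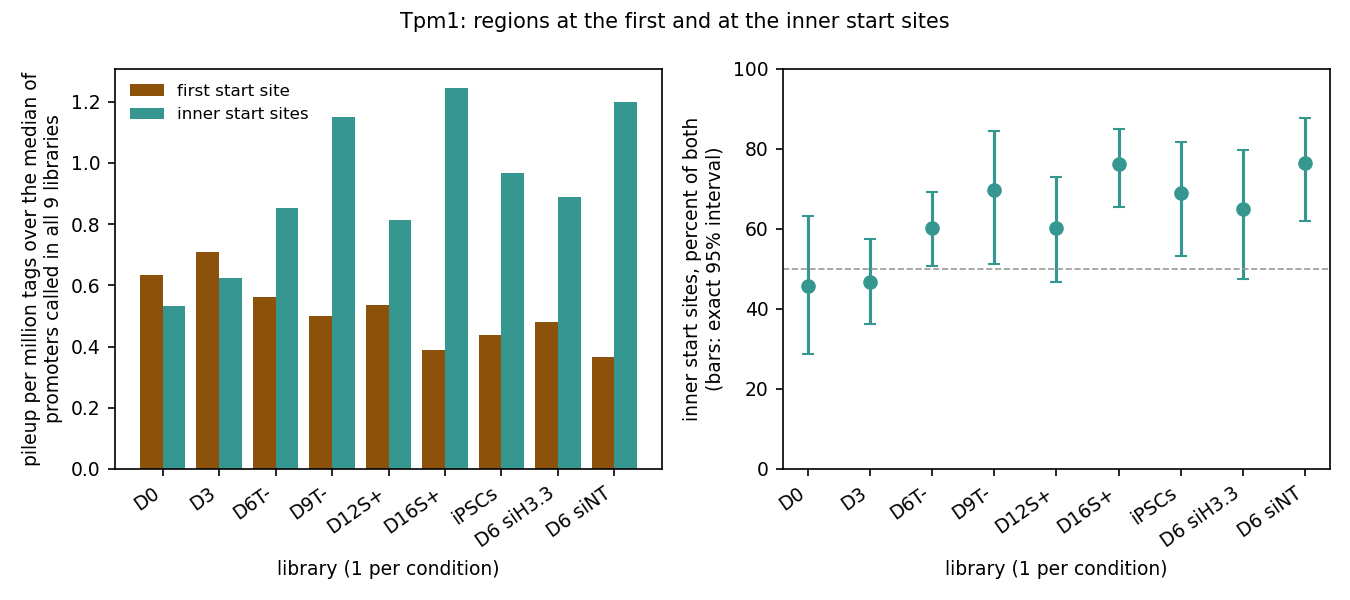
Tpm1 start sites in the 9 libraries (1 per condition). Bars on the left give the relative level at the first and the inner start sites, and points on the right give the inner share of the tags of both, with exact 95% intervals for counting error. The inner share is 45.7% at D0, 76.3% at D16S+ and 76.6% in D6 siNT.

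Vcl (chr14:21748655-21852895, plus strand) encodes vinculin, which ties actin filaments to integrin and cadherin adhesions. Its promoter value was the highest among the members in every library, at 1.29 CPM at D0, 4.33 by D3, 8.09 in D6T-, 3.25 in D9T-, 5.34 in D12S+, 4.16 in D16S+ and 2.45 in iPSCs. Relative levels ran from 1.37 at D0 to 2.19 at D12S+, with 2.03 in iPSCs. The summit lay 207 bp upstream of the TSS, with a CArG box 55 bp from it. Regions inside the gene took another course. An intronic region 9242 bp after the TSS held 15, 27, 60, 22 and 10 tags from D0 through D12S+, and none in D16S+ or iPSCs. A region 34958 bp after the TSS was called at D3, D6T- and D9T- (15, 48 and 9 tags) and not at D0 or from D12S+ on. It was also called in both siRNA libraries of day 6 (13 and 24 tags).

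Srf (chr17:46683788-46693111, minus strand) encodes the factor itself, and its own promoter carries CArG boxes. Its promoter value was 0.820 CPM in D0 cells, 2.81 in D3, 5.38 in D6T-, 2.42 in D9T-, 3.01 in D12S+, 2.69 in D16S+ and 2.18 in iPSCs. The relative level was lowest at D0 (0.867) and highest in iPSCs (1.81), and its place among all promoters moved from the 69.4th to the 95.9th percentile between them. The counts behind this were 26 tags at D0 and 58 in iPSCs, a CPM ratio of 2.66. A region in an intron 3151 bp after the TSS was also open in all 9 libraries, with 30, 49, 87, 24, 48, 37 and 32 tags along the time course, and its relative level stayed between 0.710 and 1.20.

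**Figure D3:**
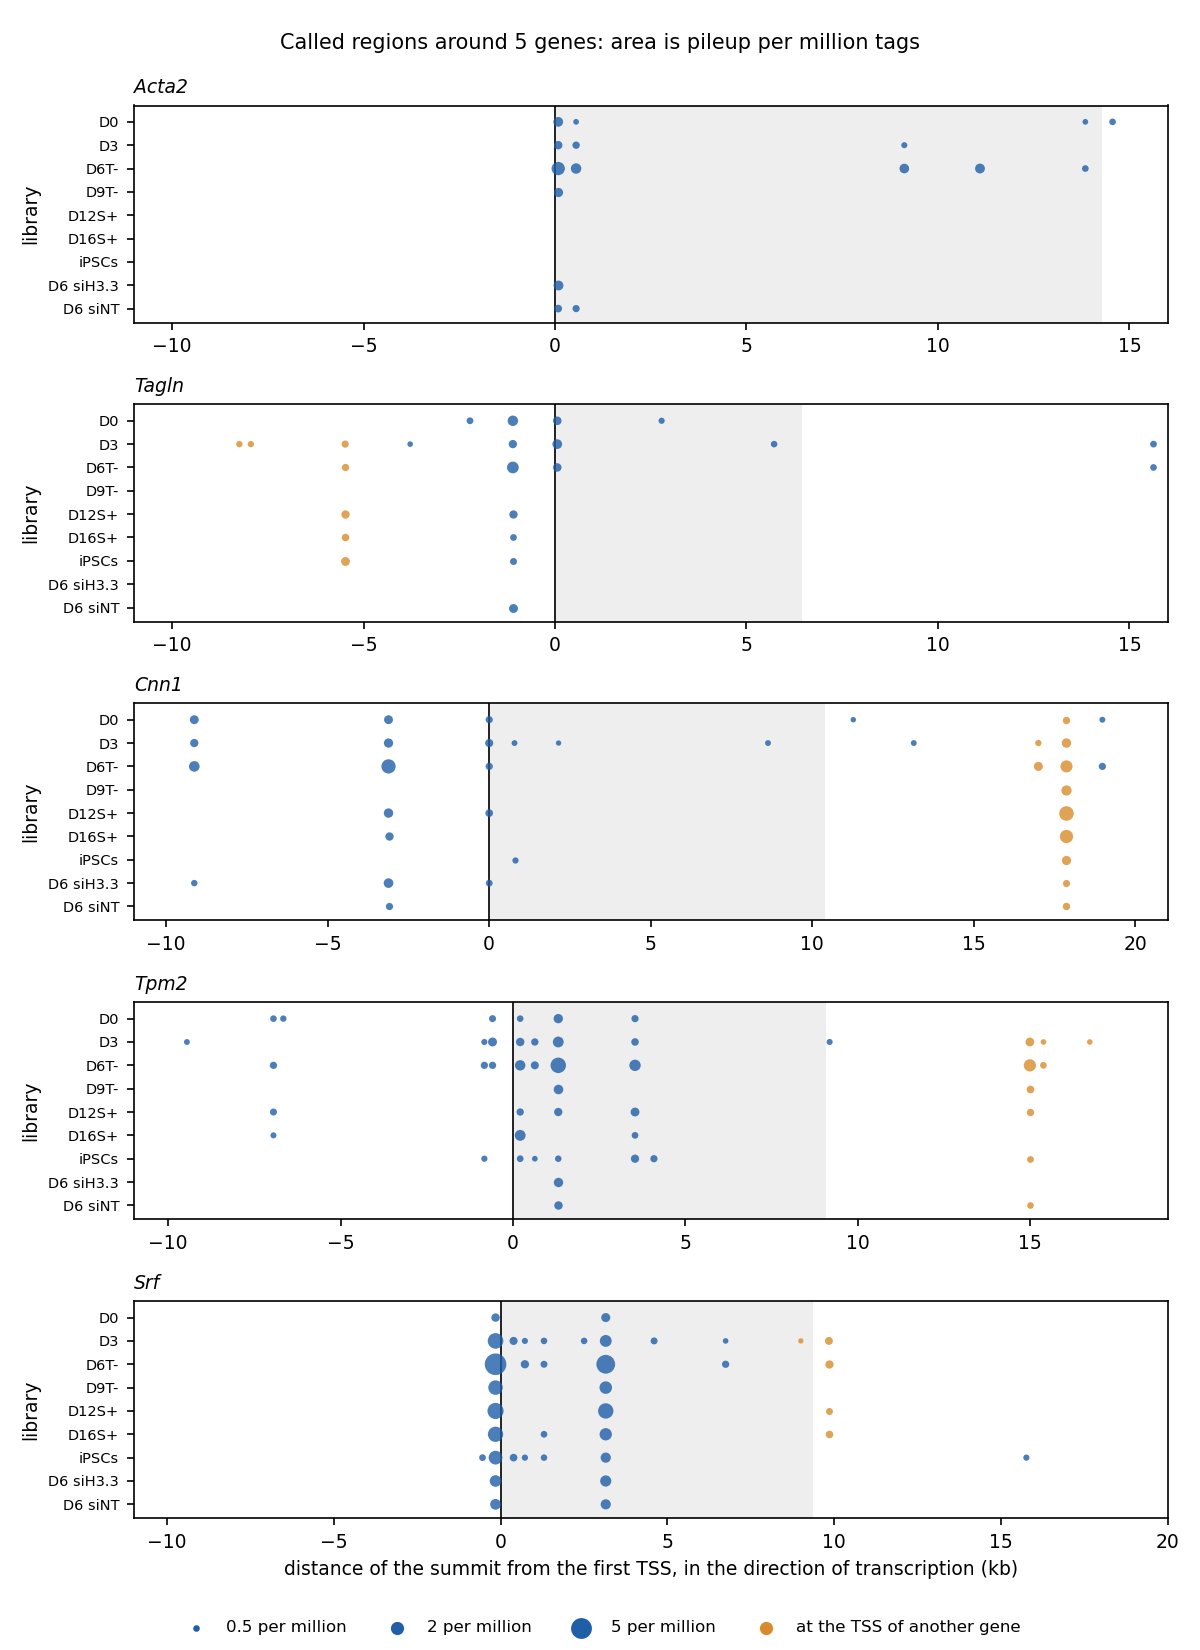
Called regions around Acta2, Tagln, Cnn1, Tpm2 and Srf by distance from the first TSS in kb (x axis) in each library (rows, 1 per condition). Point area is the CPM, grey marks the gene, and orange points lie at the TSS of another gene. The points of Acta2 end at D9T- in the time course, and those at the Srf TSS and 3151 bp into Srf are present in every row.

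For the first days of reprogramming, D3 and D6T- were compared with D0, which serves as the base of both comparisons. Of the 9 loci, 4 (Actg2, Tpm1, Vcl and Srf) were at least 2-fold higher in CPM at D3, against 48.4% of 18902 genes, and 6 of 9 (these and Cnn1 and Tpm2) were at least 2-fold higher at D6T-, against 82.5% of 19261. The highest locus value of the time course was at D3 or D6T- for 8 of 9 members and for 83.4% of all genes. Actg2 enters each of these counts through the region at the TSS of its neighbour Dguok. Relative to the shared promoters, 0 of 9 members were 2-fold higher at D3 or at D6T-, against 0.952% and 1.15% of genes, so these counts carry the library-wide level and say little of the members. Within the promoters, the members spread to both sides of the genome. At D6T- over D0, the median ratio of 12442 genes with a promoter region in both was 3.80. Srf (6.56), Vcl (6.26) and Tpm1 (5.46) lay above it, with 94.6%, 92.8% and 85.3% of genes lower. Tpm2 (2.73), Cnn1 (2.56), Acta2 (1.86), Tagln (1.26) and Myl9 (0.936) lay below it, with 23.3%, 19.6%, 8.74%, 2.64% and 0.796% of genes lower. The Tpm1 ratio sets the inner start site at D6T- (3.27 CPM) against the first at D0 (0.599 CPM), so it follows no single site. The first site of Tpm1 held 2.15 CPM at D6T-, and its inner site 0.504 CPM at D0. At D3 over D0, Acta2 (0.749) had 1.25% of genes below it and Tagln (0.865) had 2.53%, whereas Vcl (3.35) and Srf (3.43) had 87.8% and 89.3%. The Tagln ratio sets the region at the TSS at D3 against the one 1100 bp upstream at D0. By site, the region at the Tagln TSS went from 0.851 to 1.09 CPM and the upstream one from 1.26 to 0.794 CPM. For the Acta2 locus the exact 95% interval of the D3 over D0 ratio was 0.430 to 1.29, and for Vcl it was 2.34 to 4.88.

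**Figure D4:**
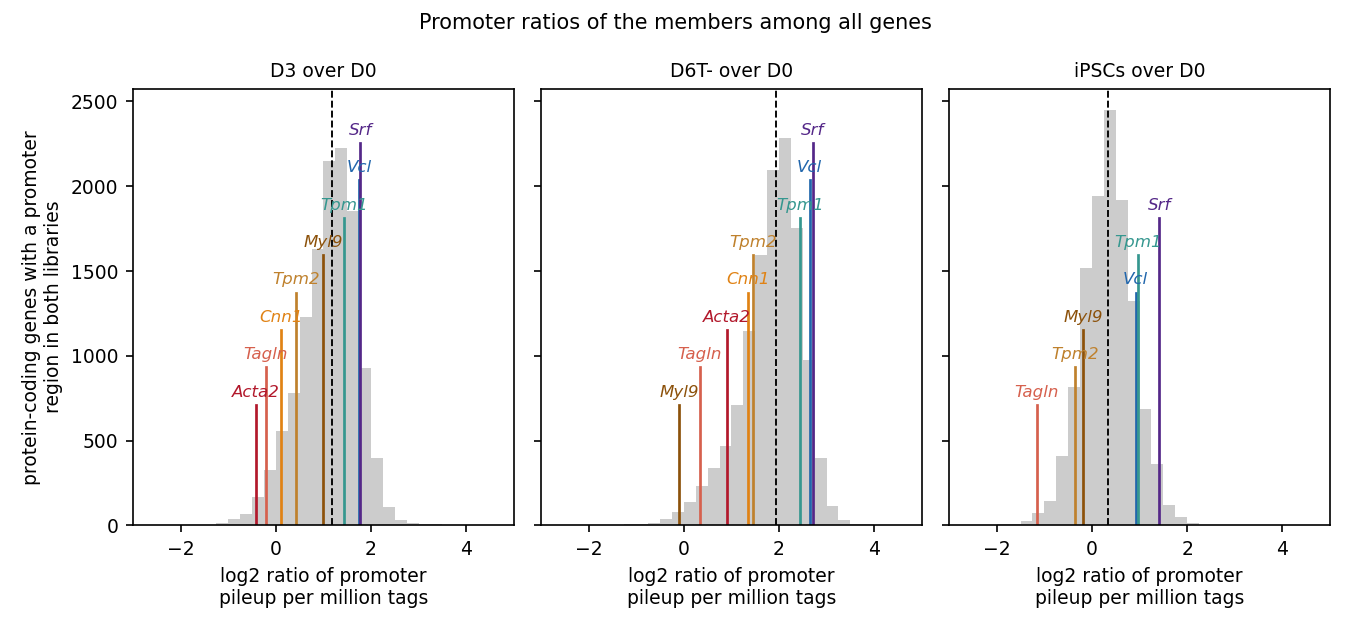
Promoter ratios of the members (coloured lines, heights staggered for the labels) on the distribution over all genes with a promoter region in both libraries (grey bars), for D3, D6T- and iPSCs over D0, as log2 of CPM. The dashed line is the median of all genes, and Srf, Vcl and Tpm1 lie to its right and Tagln and Tpm2 to its left in each panel. The ratios of Tpm1 at D6T- and in iPSCs, of Tpm2 in iPSCs and of Tagln at D3 set different regions against each other.

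In the late phase, D12S+ was compared with D6T-. The loci of Acta2 and Tpm2 were at least 2-fold lower at D12S+, 2 of 9, against 26.6% of 19169 genes. Acta2 had no region left and was at least 4.53-fold lower when the lowest pileup called at D12S+ stood in its place, and Tpm2 was 3.04-fold lower, at a ratio of 0.329 (0.177 to 0.580). The Tpm2 ratio sets different intronic regions against each other, 3544 bp after the first TSS at D12S+ and 1317 bp after it at D6T-. Tagln, at 0.500 (0.248 to 0.957), lay at the threshold. On the relative scale Acta2 remained past 2-fold, 1 of 9, against 5.21% of genes, and Tpm2 stood at 0.517.

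In iPSCs against D0, 1 of 9 loci, Acta2, was at least 2-fold lower, against 4.47% of 18728 genes. Acta2 was at least 2.93-fold lower in CPM and 3.73-fold lower on the relative scale, where it was again the only member, against 9.64% of genes. When regions at the TSS of another gene were left out, Tagln and Cnn1 joined it, 3 of 8 members with a region, against 4.99% of genes. At promoters, Acta2 and Cnn1 were the 2 of 8 members with a region at D0 and none in iPSCs, against 8% of such genes. Of the genes with a promoter region in both, 0.514% had a lower iPSCs over D0 ratio than Tagln (0.447) and 97.5% a lower one than Srf (2.66). Tpm1 (1.95) and Vcl (1.89) were on the side of Srf, and Tpm2 (0.783) and Myl9 (0.879) on that of Tagln, around a median of 1.26. The Tpm2 ratio sets the region 3544 bp after the first TSS in iPSCs against the one at 1317 bp at D0. That of Tpm1 sets the inner start site in iPSCs against the first at D0, so neither follows a single site.

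The knockdown pair asks whether less H3.3 before induction alters these loci at day 6. Of 8 members with a region in either library, 1 (Tagln) was at least 1.5-fold lower in D6 siH3.3, against 4.12% of 16652 genes, and 2 (Acta2 and Cnn1) were at least 1.5-fold higher, against 7.84%. Tagln had 20 tags in D6 siNT and no region in D6 siH3.3. It was at least 2.14-fold lower when the lowest pileup called in D6 siH3.3, 8 tags, stood in its place. This bound leaves out counting error, so a difference at Tagln was not tested. Acta2 had 21 tags in D6 siH3.3 and 15 in D6 siNT, a ratio of 1.63 with an exact 95% interval of 0.803 to 3.41. The Cnn1 locus ratio was 1.67 (0.801 to 3.57), from 20 and 14 tags, of which the 14 lie at the Elof1 TSS, and the Cnn1 promoter ratio was 1.80 (0.850 to 3.93). These intervals held 1, so at this depth a difference was not detectable for Acta2 or Cnn1. For Vcl the ratio was 0.918 (0.616 to 1.36) and for Srf 1.17 (0.673 to 2.02).

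Regions of the members were then followed by place. Of 29 regions at the member loci at D0, 16 had a summit within 1 kb of a TSS of a protein-coding gene, and 5 of these 16 had no overlapping region in iPSCs, against 22.4% of all such D0 regions. Of the 13 farther from every TSS, 12 had none in iPSCs, against 83.9% of all such regions. At D6T- the loci held 56 regions. Of the 18 near a TSS, 5 had none at D12S+, against 26.4%, and of the 38 farther away 31 had none, against 73.2%. These shares at the members were near those of the whole library. Over all libraries the summits fell into 101 clusters, 53 of which were seen in 1 library only.

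The sequence under these openings was described in 300 bp around the summit of the 28 clusters that were found in 3 or more libraries and not at the TSS of a neighbour. A perfect CArG box was in 5 of 28 (Tagln at the TSS, Myl9, Tpm2 upstream, Vcl and Srf at the promoter), against 1.46% of 80975 D0 regions, and all 5 were among the 17 within 1 kb of a TSS of the member. The AP-1 motif TGANTCA, searched like the others on both strands, was in 6 of 28, against 31.5% of D0 regions, and 4 of these were among the 11 farther away, namely Cnn1 at 9126 and 3115 bp upstream, Myl9 at 8642 bp upstream and Vcl at 9242 bp inside. The SP/KLF motif GGGCGG was in 12 of 28, against 16.6% of D0 regions, TEAD (GGAATG) in 3, against 23.1%, and the octamer (ATTTGCAT) in 1, at the Srf promoter, against 1.39%. Most D0 regions lie far from a TSS, whereas 17 of the 28 clusters lie near one, so the shares over all 22220 promoters are given too. They were 43.5% for SP/KLF, close to the share of the clusters, 13.5% for TEAD, 6.93% for AP-1, 1.73% for the octamer and 1.48% for the CArG box. Among the 17 clusters near a TSS, SP/KLF was in 9, TEAD in 3 and AP-1 in 2. From 250 bases before to 50 after the first TSS, the ratio of observed to expected CpG was 0.237 in Cnn1, 0.300 in Acta2, 0.379 in Actg2, 0.487 in Tagln, 0.551 in Myl9, 0.566 in Tpm2, 0.787 in Tpm1, 0.837 in Srf and 0.925 in Vcl, around a median of 0.535 over all promoters. The 4 members with a promoter region in all 9 libraries were those with the 4 highest values. For Tpm2, however, the region in D9T-, D6 siH3.3 and D6 siNT was the intronic one 1317 bp after the first TSS. No region was called at its first TSS, where the CpG ratio was taken, in those libraries. A link between CpG ratio and promoter regions was not tested.

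Other genes of the pathway were counted from lists. The 6 cofactor genes were Mkl1, Mkl2 and Myocd of the myocardin group and Elk1, Elk3 and Elk4 of the ternary complex factors. All 6 were at least 2-fold higher at D6T- than at D0 at their loci, against 82.5% of all genes. In iPSCs 0 of 6 were 2-fold lower than at D0, against 4.47% of all genes. By the ratio of D0 over iPSCs, Elk1 (1.43) and Mkl2 (1.09) were highest and Elk4 (0.718) and Mkl1 (0.577) lowest. Of 31 further contractile and cytoskeletal genes, 30 were at least 2-fold higher at D6T-, against 82.5% of all genes. In iPSCs 1 was at least 2-fold lower, against 4.47%. That gene was Fhl2, a LIM protein that binds SRF, at 2.33-fold higher in D0, followed by Cald1 (2.00), which encodes caldesmon. The lowest ratios were those of Myh10 (0.419), a non-muscle myosin heavy chain, and Vasp (0.409), which extends actin filaments. Of 11 immediate early SRF targets, 11 were at least 2-fold higher at D6T- and 0 were 2-fold lower in iPSCs, against the same shares. Here Mcl1 (0.943) and Junb (0.838) had the highest ratios of D0 over iPSCs and Egr2 (0.559) and Cyr61 (0.408) the lowest. Median D6T- over D0 ratios were 2.99 for the cofactors, 3.79 for the contractile genes and 3.84 for the immediate early genes, beside 2.73 for the members and 3.38 for all genes tested. At D3, 3 cofactors, 20 contractile and 7 immediate early genes were at least 2-fold higher than at D0, against 48.4% of all genes. At D12S+ 1 cofactor (Myocd), 9 contractile and 0 immediate early genes were at least 2-fold lower than at D6T-, against 26.6%. In D6 siH3.3, 0 cofactors passed 1.5-fold in either direction, Myh10 and Ier2 were lower, and Acta1 and Lmod1 were higher, of 30 contractile and 11 immediate early genes with a region. By the same threshold 4.12% of all genes were lower and 7.84% higher. In the other comparisons the median ratio of the members was close to that of all genes tested, at 1.99 beside 1.96 for D3 over D0, 0.607 beside 0.610 for D12S+ over D6T-, 1.07 beside 1.16 for iPSCs over D0 and 1.13 beside 1.04 for the knockdown pair. All these counts read against the shares of all genes given above for the same comparisons.

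Over the 9 libraries, the 5 genes whose locus profile was most like the mean of the members, among 13614 genes with a region in every library, were Hspg2 (Pearson r 0.960), Anpep (0.958), 1700017B05Rik (0.954), Col22a1 (0.944) and Epb4.1l3 (0.939). Profiles were log2 CPM minus the library's median over the genes with a region in every library. The members' mean includes the neighbour regions at Actg2 and Cnn1, and loci without a region entered it at the lowest pileup called.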

How the data were processed

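ATAC-Seq peak tables of 9 libraries, 1 per condition, were analysed. Per the labels and the study's methods, the authors mapped 51 bp reads to mm9 with STAR, removed duplicates with Picard (versions not given in the sources used here) and ran MACS2 2.1.0.20151222 (no control library, q-value cutoff 0.05), with tags extended to 200 bp and no local background. The pileup in the deposited tables is a signal: how many extended tags cover the summit, unscaled for depth. The deposited fold enrichment is a ratio to evenly spread tags, and significance is deposited as −log10 of the p-value and q-value.

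Peaks of a library that shared at least 1 bp were merged, keeping the highest pileup, which was divided by the library's tags and multiplied by 1000000. Genes came from GENCODE vM1 on NCBIM37 (mm9); each chromosome was long enough for all peaks. A library without a region was set to its lowest pileup called, so its ratio is a bound, given without an interval for counting error. Thresholds were 2-fold for the time course and 1.5-fold for the knockdown. With 1 library per condition no test was run. Counts were read against all protein-coding genes. All members are named, and of each list the 2 genes with the highest and the 2 with the lowest ratio of D0 over iPSCs, as well as the 5 genes most like the members. In the list of contractile genes 31 of 32 symbols were found (not Myl12a).

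The members, lists and thresholds were chosen with earlier results of these data known. Clusters of summits (gaps of at most 200 bp), the Tpm1 start-site shares, region turnover, CArG boxes with 1 deviation, CpG ratios, promoter ratio ranks and the exclusion of regions within 1 kb of another gene's TSS were added after seeing the data. Alternatives covered scaling, fold enrichment, windows, peak sets, sums and thresholds. Intervals are exact (Clopper-Pearson) 95% intervals. Python 3.11.15, numpy 2.4.6, pandas 2.3.3, scipy 1.17.1 and matplotlib 3.10.9 were used, and the functions were tested on simulated data.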

Additional observations from a re-analysis of the deposited data

How the results depend on the processing

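Of 345 ratios of single members under alternative settings, 294 kept their direction and size, 48 moved and 3 turned. Scaling to the shared promoters turned the D6T- over D0 ratios of Cnn1 (0.631) and Tpm2 (0.675), and flanks of 50 kb turned the D6 siH3.3 over D6 siNT ratio of Tagln (1.07). Scaling to the shared promoters left 0 members 2-fold higher at D3 or D6T-, 1 lower at D12S+ and 1 with its highest value at D3 or D6T-, because it removes the library-wide level by construction. For members lower in iPSCs than at D0, the count was 3 from 3 kb upstream to the transcript end, 3 with summed pileup, 3 without regions at the TSS of another gene (added after seeing the data), 0 with 50 kb flanks and 0 at 3-fold. For members lower at D12S+ than at D6T-, it was 5 with summed pileup, 4 without regions at the TSS of another gene, 7 at 1.5-fold and 1 with 50 kb flanks. At 3-fold, 2 members were higher at D3. In the knockdown pair, 50 kb flanks left 0 lower and 0 higher, and a 2-fold threshold left 0 higher. Apart from the scaling and thresholds, the cause was not tested. The number of members with a promoter region in iPSCs was 6 with a shorter promoter too, and 4 with the same number of regions per library or a stricter −log10 q-value. D9T-, with 13213117 tags, limits what could be called there.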
